A study of Mus musculus with 8 samples.

Results

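Solute carriers are the membrane proteins that move sugars, amino acids, metals, ions, vitamins and other small molecules across the plasma membrane and the membranes of organelles. They were followed here in repopulating microglia, bone-marrow macrophages and wild-type microglia of the mouse. A gene was included when its symbol had the form Slc, a number, the letter a and a number, and when its deposited value was at least 10 in at least 2 of the 8 libraries. Of 331 such symbols among the 23413 genes of the table, 178 met this rule, and 60 of the other 153 were at 0 in every library. Values just outside the rule were those of Slc25a18 and Slc9a5, whose second-highest values were 9.21 and 9.70, and just inside it those of Slc22a21, Slc22a4 and Slc39a2, at 11.2, 11.2 and 11.3. Of the 178 genes, 148 reached 10 in every library, and 2 (Slc27a3 and Slc41a2) passed through the bone-marrow macrophages alone. Members were thus chosen by their level in any libraries, and no contrast between groups was used.

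Carriers of this superfamily either let a solute follow its gradient or couple its movement to that of sodium, protons or another solute. Families are numbered by sequence, and members of 1 family can differ in substrate. In macrophages they are known for iron recycling, for the supply of glucose and glutamine on activation and for the export of nutrients from lysosomes. Microglia, the resident macrophages of the brain, are known for high levels of the fructose transporter Slc2a5.

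The 3 groups were repopulating microglia (n = 3, strain label DTRmg), bone-marrow macrophages (n = 3, strain label DTRmg) and wild-type microglia (n = 2, strain label DTR). One protocol text stands on all 8 samples: tamoxifen at 2 mg, given subcutaneously at postnatal days 12 and 14, then 3 abdominal injections of 500 ng diphtheria toxin, with cells then freed by papain, enriched on Percoll and sorted. Labels do not say which groups received which agent, what drives a transgene, how old the mice were at collection or whether replicates were separate animals, so p-values cover only how these samples varied, in part perhaps technically. Strain label and group cannot be told apart in the comparisons with wild type. Columns of the table named mono were taken as the bone-marrow macrophages by exclusion, since the other columns matched the microglial samples by name. Whether these macrophages came out of marrow or brain is not labelled.

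Values are read counts per gene divided by 1 size factor per library, called normalised counts below, and libraries held between 5918944 and 12476427 reads. Fold changes and tests are on log2(normalised count + 1), with a call at a Benjamini-Hochberg adjusted p under 0.05 over the 11415 genes tested (limma). Microglial markers summed to between 300457 and 350168 normalised counts in repopulating microglia, to between 96434 and 108577 in bone-marrow macrophages and to between 447075 and 484760 in wild-type microglia. All 10 of these markers were lower in bone-marrow macrophages than in wild-type microglia, and 4 in repopulating microglia. Neutrophil markers summed to between 1593 and 3032, to between 790 and 1320 and to between 26054 and 28324 in the same order of groups, and all 9 of them were lower in each of the other groups than in wild type (limma). Monocyte and recruited macrophage markers summed to between 811 and 2494, to between 5111 and 5765 and to between 4410 and 6510, and of these 9 markers 6 were lower in repopulating than in wild-type microglia and 5 lower than in bone-marrow macrophages. Endothelial markers summed to between 246 and 530, to between 74.4 and 88.2 and to between 428 and 699.5, with 5 of 6 higher in repopulating microglia than in bone-marrow macrophages. Erythroid markers summed to at most 29.9 in any library, with Hba-a1 at 0. The part of these cells in the comparisons was not tested. In such bulk libraries, fewer cells of a type and less RNA per cell cannot be told apart. Repopulating replicate 3 stood apart from replicates 1 and 2, with which it correlated across genes at r = 0.938 and 0.918, against 0.979 between those 2.

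The 178 carriers took 1.24%, 1.20% and 1.26% of all normalised counts in repopulating microglia, 1.07%, 1.08% and 1.05% in bone-marrow macrophages and 1.38% and 1.44% in wild-type microglia. The 3 groups did not overlap in this share. Carriers ran lower in the bone-marrow macrophages than in either microglial group. Against wild-type microglia, bone-marrow macrophages had 67 carriers lower and 19 higher, which is 86 of 178, beside 43.5% of all genes tested (21.3% higher and 22.2% lower). Repopulating microglia had 60 carriers higher and 21 lower than bone-marrow macrophages, 81 of 178, beside 30.9% of all genes (16% higher and 14.9% lower). Repopulating microglia differed from wild type at 19 carriers, 9 higher and 10 lower, beside 8.61% of all genes (4.86% higher and 3.75% lower), which is 10.7% of the carriers. The median log2 difference of the carriers from wild type was -0.09 in repopulating microglia and -0.41 in bone-marrow macrophages, and it was 0.35 between repopulating microglia and bone-marrow macrophages. That of all genes was -0.02, -0.01 and 0.00. Slc27a3 and Slc41a2, which met the rule through the bone-marrow macrophages alone, were among the carriers higher there than in each microglial group. Any pair of these comparisons has a group of libraries in common.

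These splits depended on scaling. With libraries set to equal totals, which moved the median of all genes to -0.12, 0.13 and -0.25 in the same order of comparisons, the calls were 6 higher and 15 lower, 31 higher and 58 lower, and 35 higher and 36 lower. Relative to the median of all genes, that of the carriers was -0.07, -0.41 and 0.35 under both scalings. Scaling moves all genes of a library by nearly the same amount, so this likeness was fixed in advance and tests nothing. Libraries of the groups compared did not overlap at 87 carriers between repopulating and wild-type microglia (40.4% of all genes), at 143 between bone-marrow macrophages and wild type (75.8%) and at 110 between repopulating microglia and bone-marrow macrophages (46%). Group means fell in the order wild type, repopulating, bone marrow at 77 carriers (43.3%, against 28.2% of all genes). The reverse order was seen at 26 carriers (14.6%, against 26.1% of all genes). Overlaps and orders were taken on the deposited scaling alone and were not computed with equal totals.

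**Figure D1:**
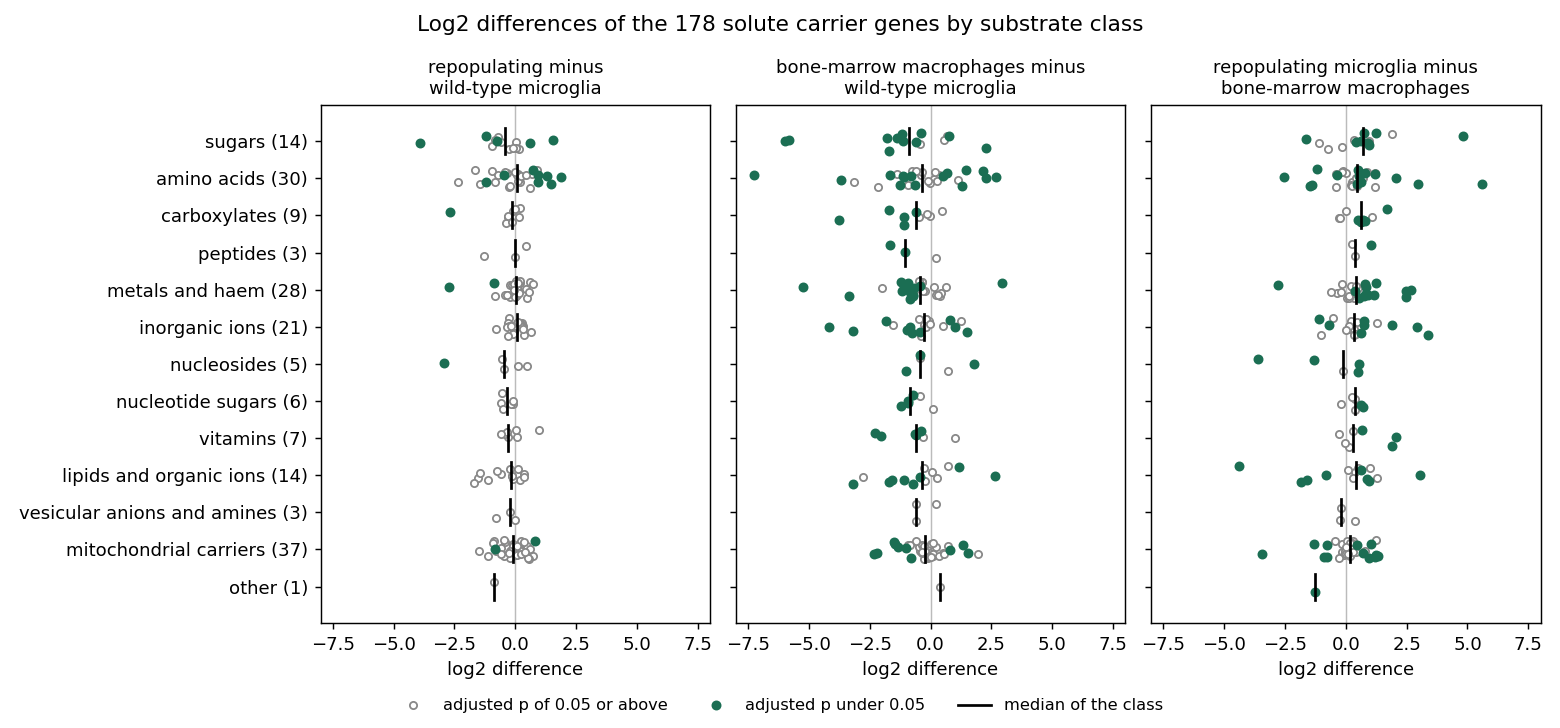
Log2 difference of each of the 178 carriers (x axis, on the log2(normalised count + 1) scale) in its substrate class (rows, number of genes in brackets), for the 3 comparisons. Filled points passed an adjusted p of 0.05 and black bars are class medians. Points lie mostly left of 0 in the comparison of bone-marrow macrophages with wild-type microglia, where 67 were lower and 19 higher, and mostly open in that of repopulating with wild-type microglia, where 19 passed.

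By substrate, 37 of the carriers are mitochondrial, 30 carry amino acids, 28 metals or haem, 21 inorganic ions, 14 sugars or sugar phosphates, 14 lipids or organic ions, 9 monocarboxylates and relatives, 7 vitamins, 6 nucleotide sugars, 5 nucleosides, 3 peptides and 3 vesicular anions and amines, with the urea transporter Slc14a1 left over. Classes were assigned by family number with few exceptions, so the substrate of a single member may differ. Per kilobase of exon, the mitochondrial ADP/ATP carrier Slc25a5 had the highest mean level in all 3 groups, at 3236 ± 1012 normalised counts per kb in repopulating microglia, 2903 ± 131 in bone-marrow macrophages and 3012 ± 368 in wild-type microglia (SD). Slc2a5 came second in wild-type microglia, at 2509 ± 221 normalised counts per kb, a level that does not lie below that of Slc25a5 by more than their spread added up. In repopulating microglia Slc11a1 (1248 ± 181), Slc3a2 (1224 ± 55.6), Slc2a5 (1108 ± 213) and Slc29a3 (1039 ± 90.4) followed, with neighbours among these 4 overlapping in mean ± SD. In bone-marrow macrophages Slc3a2 (824 ± 83.2) and Slc29a3 (705 ± 51.7) came next. The median carrier stood at 45.6, 38.7 and 49.8 normalised counts per kb in repopulating microglia, bone-marrow macrophages and wild-type microglia.

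Repopulating microglia were set against wild-type microglia first, the comparison nearest to the renewal of microglia that the series title names. Several carriers of amino acids, those of taurine, glutamine and glycine among them, were higher in repopulating microglia, and the fructose, iron and zinc carriers Slc2a5, Slc40a1 and Slc39a12 were lower. Of the 30 amino acid carriers 6 were higher and 2 lower, of 14 sugar carriers 2 and 3, of 37 mitochondrial carriers 1 and 1, and of 28 metal carriers 2 were lower. With equal totals these were 5 and 3, 1 and 4, 0 and 1, and 3 lower. One carboxylate carrier (Slc16a9) and 1 nucleoside carrier (Slc28a2) were lower as well. Beside these counts, 4.86% of all genes were higher and 3.75% lower. All 19 calls rested on few libraries. Without wild-type replicate 1 none of the 19 passed (adjusted p between 0.0777 and 0.301), although 34 carriers had an unadjusted p under 0.05 in that limma fit. Without wild-type replicate 2 Slc6a6 alone was left. With only the 2 groups in the fit none passed (0.0544 to 0.186), and 38 carriers had an unadjusted p under 0.05. Leaving out repopulating replicate 1, bone-marrow replicate 1, 2 or 3 gave 7, 8, 9 and 7 calls, and leaving out repopulating replicate 3 gave 47, which included all 19. On the recovered reads edgeR called the same 19 and DESeq2 26, and each of the 19 kept its direction in every alternative.

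The taurine transporter Slc6a6 held 2901, 2907 and 2759.7 normalised counts in repopulating microglia and 1469 and 1540.4 in wild-type microglia. Every repopulating library was well above both wild-type libraries, and the log2 difference was 0.92 (SE 0.12, adjusted p = 0.00477). Its adjusted p was 0.0777 without wild-type replicate 1 and 0.0479 without wild-type replicate 2. Slc38a1, a sodium-coupled glutamine transporter, had 1176, 1092 and 1159.9 normalised counts in repopulating and 657 and 725 in wild-type microglia. These groups lay apart too, with a log2 difference of 0.73 (SE 0.12, adjusted p = 0.0107), and the adjusted p was 0.131 and 0.0641 without wild-type replicate 1 or 2. Slc1a5, the exchanger of neutral amino acids that brings in glutamine, had 194, 272 and 130.2 normalised counts in repopulating and 78.0 and 74.2 in wild-type microglia. Repopulating libraries differed among themselves, and all were above both wild-type libraries, at a log2 difference of 1.31 (SE 0.27, adjusted p = 0.0221). The adjusted p was 0.064 without repopulating replicate 1, and 0.153 and 0.133 without wild-type replicate 1 or 2. Slc38a6, Slc6a9 (the glycine transporter GlyT1) and Slc38a10 were higher by 1.89, 1.48 and 0.92 on the log2 scale, and their adjusted p without wild-type replicate 1 was 0.187, 0.103 and 0.284. The neutral amino acid exchanger Slc1a4 and the cationic amino acid exporter Slc7a7 were lower, at -1.20 and -0.47 (0.221 and 0.301 without wild-type replicate 1). For Slc6a9, 30.2% of exon bases overlap other genes, mostly on the opposite strand, and the kit does not mark strand.

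Slc2a5 encodes GLUT5, the facilitative fructose transporter, and lies at chromosome 4, 150119283 to 150144169 (GENCODE vM21, GRCm38, the assembly also called mm10). It held 3686, 3092 and 4533 normalised counts in repopulating microglia and 9067 and 8002 in wild-type microglia. The highest repopulating library did not reach the lower wild-type one, and the log2 difference was -1.19 (SE 0.18, adjusted p = 0.00743), with an adjusted p of 0.0997 and 0.0542 without wild-type replicate 1 or 2. The lysosomal hexose transporter Slc2a6 went the other way, with 672, 816 and 278 normalised counts in repopulating and 220.1 and 150.5 in wild-type microglia. Repopulating replicate 3 was the lowest of its group yet above both wild-type libraries, and the log2 difference of 1.55 (SE 0.40, adjusted p = 0.0489) had an adjusted p of 8.97e-06 without that replicate and 0.176 and 0.255 without wild-type replicate 1 or 2. Slc45a4 was higher by 0.59 and the sugar exporter Slc50a1 lower, at -0.76 (0.26 and 0.251 without wild-type replicate 1). Slc5a10, a sodium-coupled mannose and fructose transporter known from kidney, stood at 1.89, 1.48 and 10.4 normalised counts in repopulating and 67.3 and 61.0 in wild-type microglia, a log2 difference of -3.91 (SE 0.73, adjusted p = 0.0167) with an adjusted p of 0.159 and 0.116 without wild-type replicate 1 or 2. Part of its exons (16.8% of bases) overlaps Fam83g and Grap on the opposite strand, so reads of these genes cannot be told apart there.

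Ferroportin, encoded by Slc40a1 and the known exporter of cellular iron, had 1402, 1164 and 1333 normalised counts in repopulating microglia and 2621 and 2200.2 in wild-type microglia. Repopulating libraries were all lower, at a log2 difference of -0.89 (SE 0.20, adjusted p = 0.0322). The zinc importer Slc39a12 had 25.5, 11.8 and 43.8 and 201 and 135 normalised counts in the same groups, a log2 difference of -2.74 (SE 0.66, adjusted p = 0.0386). Slc16a9, a member of the monocarboxylate family, had 10.4, 5.90 and 16.1 normalised counts in repopulating and 63 and 77.3 in wild-type microglia, also without overlap, at -2.68 (SE 0.49, adjusted p = 0.0157). Its exons share 23.5% of their bases with antisense or pseudogene models. The mitochondrial carnitine-acylcarnitine carrier Slc25a20 was lower, at -0.85, as was the concentrative nucleoside transporter Slc28a2, at -2.92, while the mitochondrial glutamate carrier Slc25a22 was higher by 0.83. Without wild-type replicate 1 the adjusted p of Slc40a1, Slc39a12, Slc16a9, Slc25a20, Slc28a2 and Slc25a22 was 0.252, 0.261, 0.129, 0.144, 0.28 and 0.253, and without wild-type replicate 2 it was 0.116, 0.146, 0.118, 0.119, 0.159 and 0.174.

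Among sugar carriers the bone-marrow macrophages stood far from both microglial groups. Slc2a5, at 145, 121 and 133 normalised counts in these 3 libraries, was below every microglial library by a wide margin, at a log2 difference of -5.99 (SE 0.18, adjusted p = 8.16e-07) from wild-type and of 4.80 (SE 0.16, adjusted p = 7.56e-07) between repopulating microglia and bone-marrow macrophages. It made up between 37.9% and 52.2% of all sugar carrier counts in repopulating microglia, between 2.81% and 3.66% in bone-marrow macrophages and between 64.1% and 65.4% in wild-type microglia. Without it the class summed to between 4152 and 5068, between 3813 and 4183 and between 4484 and 4798 normalised counts in the same groups. In all, 9 of 14 sugar carriers were lower and 2 higher in bone-marrow macrophages than in wild-type microglia, with a class median of -0.88, and 7 were higher and 1 lower in repopulating microglia than in bone-marrow macrophages, with a median of 0.69. With equal totals the splits were 8 lower and 3 higher, and 5 higher and 4 lower. Of all genes, 22.2% were lower and 21.3% higher in the first comparison, and 16% higher and 14.9% lower in the second. The same shares stand beside the class counts below. Of the 86 and 81 calls that involve bone-marrow macrophages, 45 and 41 passed in every alternative that tested the gene. From here on, a difference given for a single carrier as a call is among these unless a value says otherwise, while counts over classes and lists include calls that were lost in some alternatives.

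The glucose transporters split by gene. Slc2a1, the GLUT1 of most cells, had 958, 652 and 753 normalised counts in repopulating microglia, 397, 399 and 454 in bone-marrow macrophages and 964 and 881 in wild-type microglia. Bone-marrow macrophages were lowest without overlap, with log2 differences of -1.15 from wild-type microglia and 0.90 in repopulating microglia relative to them. Slc2a3, the high-affinity GLUT3 known from neurons and leukocytes, had 95.4, 124 and 61.0 normalised counts in repopulating microglia, 299, 292 and 249.6 in bone-marrow macrophages and 160.3 and 191 in wild-type microglia. Here the bone-marrow libraries were highest, and repopulating microglia were lower than bone-marrow macrophages, at -1.63 (SE 0.25, adjusted p = 0.00139), while the difference of bone-marrow macrophages from wild type (0.67) had an adjusted p of 0.0783. Slc2a6 was also high in bone-marrow macrophages, at 789, 953 and 922 normalised counts, 2.28 (SE 0.40, adjusted p = 0.00234) above wild type. Slc2a9, a urate transporter, had 173, 153 and 164 normalised counts in repopulating microglia, 55.7, 80.6 and 74.1 in bone-marrow macrophages and 165 and 151 in wild-type microglia. Repopulating and wild-type libraries overlapped, and bone-marrow macrophages were lower than wild type, at -1.18 on the log2 scale. The sugar phosphate exchanger Slc37a3 and the sugar exporter Slc50a1 were lower than wild type as well, at -1.69 and -1.38. Slc5a10 had 1 read in all bone-marrow libraries and 123 in the wild-type libraries, a ratio of wild type to bone marrow of 246 (95% counting interval 43.3 to 9789).

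**Figure D2:**
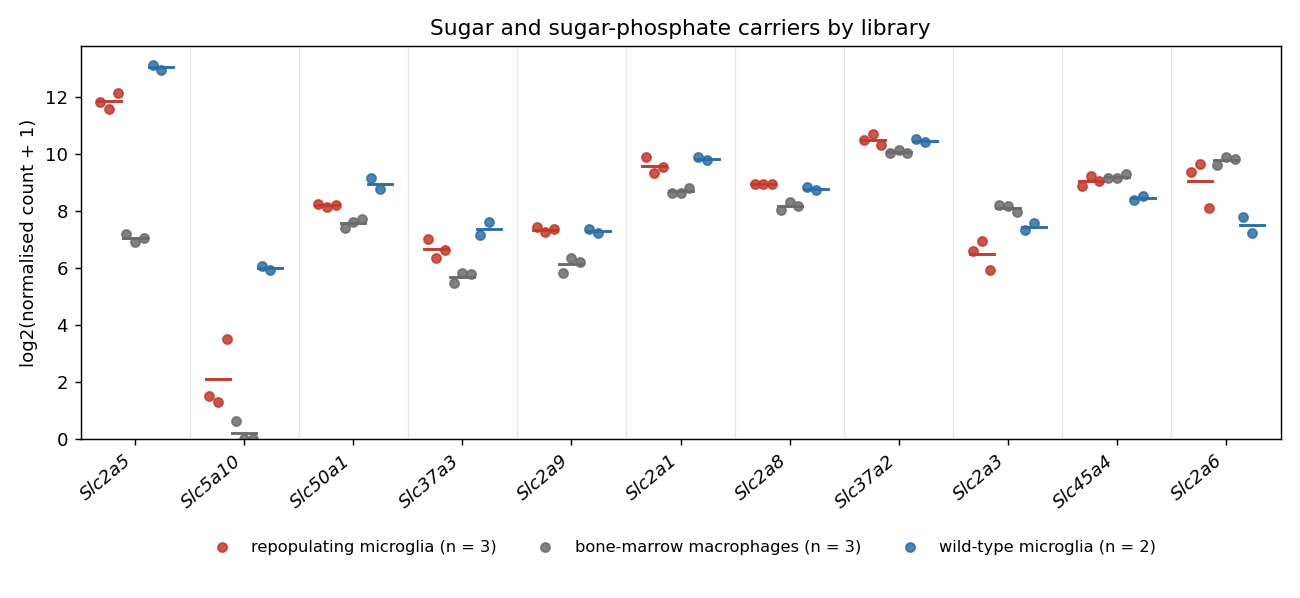
Normalised counts of 11 sugar and sugar phosphate carriers (y axis, log2 of the count plus 1) in each library, with repopulating microglia in red, bone-marrow macrophages in grey and wild-type microglia in blue. Points are libraries and bars are group means of the log2 values. Slc2a5 runs between 121 and 145 normalised counts in bone-marrow macrophages, against 8002 and 9067 in wild-type microglia, and Slc2a6 and Slc45a4 are lowest in wild-type microglia.

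Promoters of 4 carriers are shown because these genes mark the contrasts above and below: Slc2a5 (lower in bone-marrow macrophages than in wild-type microglia), Slc2a6 (higher), and the carriers Slc12a9 and Slc46a3, which were lower and hold matches to the motifs searched. They are windows of 300 bases around the RefSeq start in GRCm38.p6, read 5′ to 3′ on the gene's strand, with capitals for motif matches on either strand. Slc2a5 (chr4:150119094-150119393, plus strand) and Slc2a6 (chr2:27027949-27028248, minus strand) hold no match. Slc12a9 (chr5:137333533-137333832, minus strand) holds 1 CACGTG, and Slc46a3 (chr5:147894766-147895065, minus strand) holds 2 matches of TGACNNNGC.
Slc2a5: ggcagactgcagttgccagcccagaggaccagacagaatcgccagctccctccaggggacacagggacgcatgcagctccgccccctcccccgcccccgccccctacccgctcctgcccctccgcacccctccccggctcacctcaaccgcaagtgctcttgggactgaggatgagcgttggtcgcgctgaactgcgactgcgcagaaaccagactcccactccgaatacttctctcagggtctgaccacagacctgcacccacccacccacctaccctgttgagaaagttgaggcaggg
Slc2a6: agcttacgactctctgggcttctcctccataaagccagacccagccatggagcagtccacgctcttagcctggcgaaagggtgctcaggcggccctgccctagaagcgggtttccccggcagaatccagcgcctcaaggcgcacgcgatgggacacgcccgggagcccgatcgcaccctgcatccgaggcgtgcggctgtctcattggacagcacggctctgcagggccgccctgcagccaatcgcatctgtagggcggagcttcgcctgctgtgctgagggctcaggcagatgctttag
Slc12a9: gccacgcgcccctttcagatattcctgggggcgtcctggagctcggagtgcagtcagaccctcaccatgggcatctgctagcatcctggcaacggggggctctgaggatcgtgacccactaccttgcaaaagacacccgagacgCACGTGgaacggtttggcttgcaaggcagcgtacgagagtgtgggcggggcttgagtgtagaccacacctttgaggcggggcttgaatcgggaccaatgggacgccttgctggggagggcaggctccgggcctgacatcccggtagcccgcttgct
Slc46a3: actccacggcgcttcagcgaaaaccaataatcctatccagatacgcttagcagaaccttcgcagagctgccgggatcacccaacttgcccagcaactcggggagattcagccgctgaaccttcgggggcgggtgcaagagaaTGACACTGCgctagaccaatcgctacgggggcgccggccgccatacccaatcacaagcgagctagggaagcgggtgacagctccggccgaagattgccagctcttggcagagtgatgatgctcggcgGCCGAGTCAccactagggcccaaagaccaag
Motifs searched on both strands were GAGGAAGT, of the type bound by the macrophage factor PU.1, CACGTG, the E-box bound among others by lysosomal gene regulators, and TGACNNNGC, of the antioxidant response element type. They are held by 2.83%, 15.8% and 21.5% of the 177 promoters listed for 133 of the 178 carriers, and by 3.11%, 7.17% and 12.4% of all 32544 promoters of the same length. The carriers were chosen by level and the 32544 promoters were not, so the sets are unlike, and the difference in shares was not tested. A match is a string of letters and says nothing on binding, and the lack of one covers these letters in this window alone.

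Amino acid carriers moved in both directions in bone-marrow macrophages, with 8 of 30 lower and 7 higher than in wild-type microglia and a median of -0.37 (7 lower and 8 higher with equal totals). The shares of 26.7% lower and 23.3% higher were near the 22.2% and 21.3% of all genes. Slc1a3 (GLAST), the sodium-coupled glutamate transporter at chromosome 15, 8634124 to 8710764, had 1387, 182 and 1909 normalised counts in repopulating microglia, 17, 14.8 and 14.1 in bone-marrow macrophages and 987 and 6365 in wild-type microglia. Bone-marrow libraries held at most 17 and microglial libraries at least 182 normalised counts, a log2 difference of -7.27 (SE 1.0, adjusted p = 0.00067) from wild type and of 5.59 (SE 0.90, adjusted p = 0.00185) between repopulating microglia and bone-marrow macrophages. Microglial libraries themselves spread widely within each group, repopulating replicate 2 being the lowest and wild-type replicate 2 the highest. The difference between these groups (-1.68) had an adjusted p of 0.32. The gene is also known from astrocytes, whose markers summed to 110, 78.2 and 410 normalised counts in repopulating replicates 1 to 3, to between 76.7 and 116 in bone-marrow macrophages and to 121 and 131 in wild-type replicates 1 and 2. Slc1a2, the other main glutamate transporter of astrocytes, had 23.6, 25.1 and 137 normalised counts in repopulating microglia, 22.2, 37.1 and 15.9 in bone-marrow macrophages and 48.1 and 34.6 in wild-type microglia. It was highest in repopulating replicate 3, as the astrocyte sum was, whereas Slc1a3 was highest in wild-type replicate 2. The part of astrocytes in these values was not tested.

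Slc7a7, which exports arginine and lysine in exchange for neutral amino acids, had 1267, 1239.7 and 1193 normalised counts in repopulating microglia, 529.6, 566 and 535 in bone-marrow macrophages and 1808 and 1619 in wild-type microglia. The bone-marrow libraries were lowest without overlap, at -1.65 from wild type, and repopulating microglia were 1.18 (SE 0.11, adjusted p = 9.09e-05) above them. Slc7a1, which imports cationic amino acids, ran the other way, with 281, 177 and 382 normalised counts in repopulating microglia, 639, 616 and 575 in bone-marrow macrophages and 259.6 and 193 in wild-type microglia. It was higher in bone-marrow macrophages than in wild type by 1.44 (SE 0.29, adjusted p = 0.00434) and lower in repopulating microglia than in bone-marrow macrophages, at -1.19. The heavy chain that Slc7a5, Slc7a7, Slc7a8 and Slc7a11 need at the surface, Slc3a2 (CD98), had 4396, 4097 and 4467 normalised counts in repopulating microglia, 2598, 2945 and 3182 in bone-marrow macrophages and 5199 and 5019.7 in wild-type microglia. Bone-marrow macrophages again lay lowest, at -0.82 (SE 0.13, adjusted p = 0.00147) from wild type. The large neutral amino acid transporter Slc7a5 had 1030.4, 778 and 948 normalised counts in repopulating microglia, 1216, 1131 and 1263 in bone-marrow macrophages and 1356 and 1075 in wild-type microglia, with bone-marrow and wild-type libraries overlapping and an adjusted p of 0.977. Slc7a8, its relative, had 3661, 3167 and 5417 normalised counts in repopulating microglia, 2399, 2630.2 and 2810.3 in bone-marrow macrophages and 3878 and 4223 in wild-type microglia, a log2 difference of -0.63 (SE 0.21, adjusted p = 0.0402) between bone-marrow macrophages and wild type that was lost in 10 of 18 alternatives, among them those without any 1 of the wild-type or bone-marrow libraries or repopulating replicate 1 (adjusted p up to 0.182).

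Slc1a5 was 2.68 (SE 0.27, adjusted p = 0.000119) higher in bone-marrow macrophages, at 503, 486 and 486 normalised counts, than in wild-type microglia, and repopulating microglia stood between the 2 groups, -1.37 (SE 0.24, adjusted p = 0.0028) from bone-marrow macrophages. Slc38a6 was likewise higher in bone-marrow macrophages than in wild type (2.28), as was Slc6a6 (1.30). Slc38a9, the lysosomal arginine-sensing carrier, had 317, 269 and 192 normalised counts in repopulating microglia, 153, 153 and 133 in bone-marrow macrophages and 324 and 319 in wild-type microglia. It was lower in bone-marrow macrophages than in wild type, at -1.13 (SE 0.21, adjusted p = 0.00313). Slc43a1, a transporter of large neutral amino acids, had 16.1, 22.1 and 36.9 normalised counts in repopulating microglia, 1.1, 2.12 and 3.53 in bone-marrow macrophages and 35.3 and 43.7 in wild-type microglia. Lowest were the bone-marrow macrophages, at -3.69 (SE 0.48, adjusted p = 0.000501) from wild type. Its neighbour 72984 bases away on chromosome 2, Slc43a3, a carrier of purine nucleobases, ran the opposite way, with 103, 119.5 and 92.1 normalised counts in repopulating microglia, 263, 244 and 265 in bone-marrow macrophages and 93.0 and 59 in wild-type microglia and log2 differences of 1.78 from wild type and -1.29 between repopulating microglia and bone-marrow macrophages. The glycine transporter Slc6a9 was highest in repopulating microglia, 2.08 (SE 0.30, adjusted p = 0.00109) above bone-marrow macrophages, at 81.2, 59 and 55.3 against 11.4, 15.9 and 16.8 normalised counts.

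**Figure D3:**
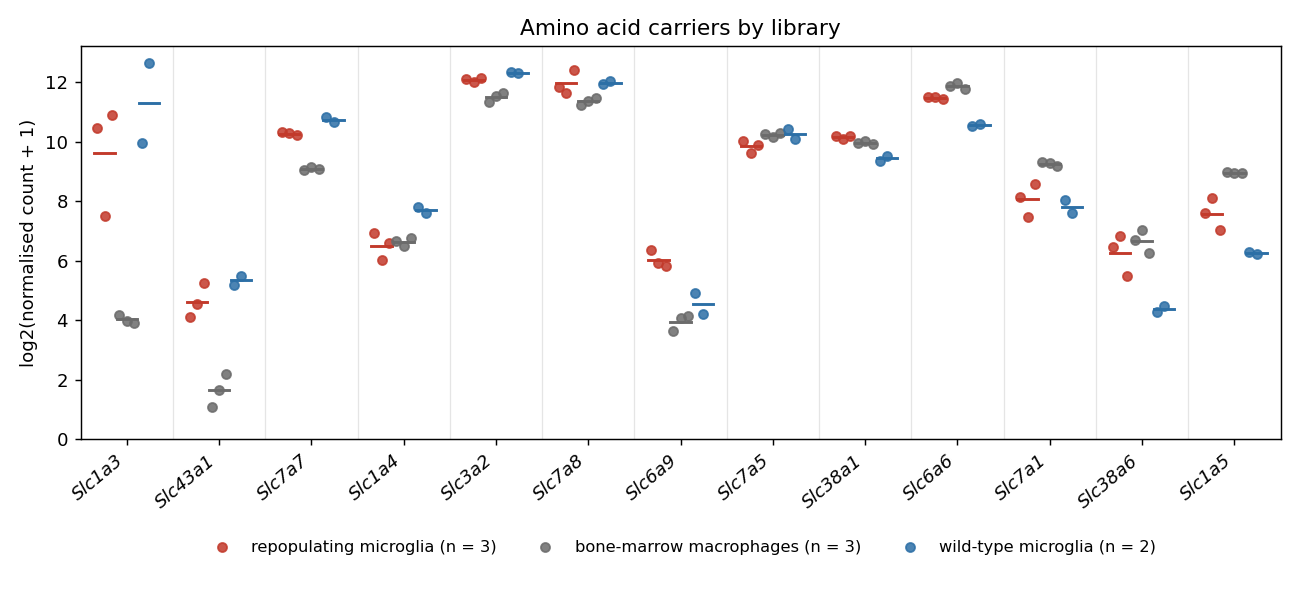
Normalised counts of 13 amino acid carriers (y axis, log2 of the count plus 1) in each library, colours and bars as in the plot of sugar carriers. Slc1a3 lies between 14.1 and 17 normalised counts in bone-marrow macrophages and spreads between 182 and 1909 in repopulating and between 987 and 6365 in wild-type microglia, while Slc6a6 is lowest in wild-type microglia.

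Of 28 metal and haem carriers, 12 were lower and 1 higher in bone-marrow macrophages than in wild-type microglia, with a median of -0.44, and 15 were not called. With equal totals 10 were lower and 4 higher. In repopulating microglia 13 were higher and 1 lower than in bone-marrow macrophages, or 9 and 4 with equal totals. The single carrier called higher in bone-marrow macrophages in both comparisons was Slc41a2. It met the rule through the bone-marrow libraries alone, so the rule favoured its direction. Both calls were lost without any 1 of the bone-marrow libraries (adjusted p up to 0.096, limma). The call against wild type was also lost with a pseudocount of 0.5 (adjusted p = 0.0547, limma) and without either wild-type library. Called were 46.4% and 50% of the class, beside 43.5% and 30.9% of all genes. Ferroportin (Slc40a1, chromosome 1, 45908068 to 45926523) had 189, 303 and 225 normalised counts in bone-marrow macrophages, -3.35 (SE 0.20, adjusted p = 1.64e-05) from wild type, and repopulating microglia exceeded bone-marrow macrophages by 2.46 (SE 0.18, adjusted p = 3.98e-05). Slc11a1 (NRAMP1), which moves iron and manganese out of the phagosome, had 5245, 4718 and 3910.4 normalised counts in repopulating microglia, 1932, 2103 and 2099.6 in bone-marrow macrophages and 3702 and 3062 in wild-type microglia. Repopulating microglia were highest without overlap, by 1.17 (SE 0.14, adjusted p = 0.000443) over bone-marrow macrophages, but not past the threshold against wild type (adjusted p = 0.117, and 0.00494 without repopulating replicate 3). The endosomal iron importer Slc11a2 (DMT1) had 515, 502 and 369 normalised counts in repopulating microglia, 264, 293 and 248 in bone-marrow macrophages and 496 and 376 in wild-type microglia. Bone-marrow macrophages were lowest, and repopulating microglia exceeded them by 0.77 on the log2 scale. The haem transporter Slc48a1 (HRG1), which returns haem from the phagolysosome to the cytosol, had 514, 609.5 and 510.2 normalised counts in repopulating microglia, 590.4, 628 and 632 in bone-marrow macrophages and 518 and 478 in wild-type microglia. Its 3 groups lay close together, at an adjusted p of 0.0923 for bone-marrow macrophages and of 0.585 for repopulating microglia, each against wild type.

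Zinc is brought into the cytosol by carriers of the Slc39 family and removed from it by those of the Slc30 family. Slc39a8 (ZIP8), known to be induced in inflamed macrophages, had 329.6, 329 and 390.5 normalised counts in repopulating microglia, 158, 145 and 136 in bone-marrow macrophages and 352 and 320.3 in wild-type microglia. Microglial groups overlapped, and bone-marrow macrophages were lower than wild type, at -1.19 (SE 0.15, adjusted p = 0.000443). Slc39a12 had 6.82, 1.06 and 4.41 normalised counts in bone-marrow macrophages, -5.23 (SE 0.66, adjusted p = 0.00042) from wild type. Slc39a1, the most abundant member of its family per kilobase in all 3 groups, had 1644, 1576 and 1290.0 normalised counts in repopulating microglia, 949, 1053 and 1039.7 in bone-marrow macrophages and 1366 and 1272 in wild-type microglia. Repopulating microglia were highest, but their difference from wild type (0.18) had an adjusted p of 0.441. The zinc exporter Slc30a1 had 205, 219.9 and 169 normalised counts in repopulating microglia, 136, 161 and 148 in bone-marrow macrophages and 191 and 187 in wild-type microglia, and none of its differences passed the threshold (adjusted p between 0.0738 and 0.857). Slc30a4, which moves zinc into vesicles, had 340.0, 320.3 and 261 normalised counts in repopulating microglia, 211, 270.4 and 177 in bone-marrow macrophages and 402 and 419.9 in wild-type microglia, and bone-marrow macrophages were -0.92 (SE 0.20, adjusted p = 0.00664) from wild type, with an adjusted p of 0.0501 without wild-type replicate 2. Of the copper carriers, Slc31a2 had 570.5, 475 and 346 normalised counts in repopulating microglia, 232, 267 and 269 in bone-marrow macrophages and 591 and 517 in wild-type microglia. Bone-marrow macrophages were lower than wild type, at -1.11, and repopulating microglia higher than bone-marrow macrophages by 0.83. Its neighbour Slc31a1 (CTR1), the main copper importer, 62315 bases away on chromosome 4, had 1311, 1102 and 721 normalised counts in repopulating microglia, 569, 603 and 523 in bone-marrow macrophages and 637 and 690.4 in wild-type microglia, with repopulating libraries highest but an adjusted p of 0.132 against wild type.

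Among vitamin carriers, the most abundant members were lowest in bone-marrow macrophages. Slc46a1, the proton-coupled folate transporter (chromosome 11, 78465697 to 78472059), had 1312, 1262 and 1277 normalised counts in repopulating microglia, 296, 373 and 375 in bone-marrow macrophages and 1818 and 1589 in wild-type microglia. Bone-marrow macrophages were far below both microglial groups, at -2.29 (SE 0.15, adjusted p = 1.77e-05) from wild type and 1.89 (SE 0.13, adjusted p = 3.26e-05) in repopulating microglia relative to them. Slc46a3, a lysosomal member of this family, was counted in this class by its family number alone. It had 1926, 1483 and 1441 normalised counts in repopulating microglia, 392, 438 and 338 in bone-marrow macrophages and 1701 and 1476 in wild-type microglia. Repopulating and wild-type libraries overlapped, while bone-marrow macrophages were -2.03 (SE 0.17, adjusted p = 6.31e-05) from wild type. The vitamin C transporter Slc23a2 had 1518, 1296 and 1481 normalised counts in repopulating microglia, 883, 1013 and 812 in bone-marrow macrophages and 1419 and 1288 in wild-type microglia, and repopulating microglia were above bone-marrow macrophages by 0.67 (SE 0.13, adjusted p = 0.0045). The reduced folate carrier Slc19a1 had 216, 209.6 and 215 normalised counts in repopulating microglia, 197, 189.8 and 205 in bone-marrow macrophages and 256 and 263 in wild-type microglia, a narrow range in which the call for bone-marrow macrophages against wild type (-0.40) was lost in 10 of 18 alternatives, among them those without any 1 of the wild-type or bone-marrow libraries or repopulating replicate 1 (adjusted p up to 0.178). In all, 5 of 7 vitamin carriers were lower in bone-marrow macrophages than in wild type (3 lower and 1 higher with equal totals), and 3 were higher in repopulating microglia than in bone-marrow macrophages.

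Ion carriers held some of the largest differences. Slc12a2 (NKCC1), the sodium-potassium-chloride cotransporter, had 1369.5, 1409 and 1593 normalised counts in repopulating microglia, 169.9, 253 and 157 in bone-marrow macrophages and 1762 and 1744 in wild-type microglia. Bone-marrow macrophages were lowest by a wide margin, -3.21 (SE 0.20, adjusted p = 1.74e-05) from wild type, and repopulating microglia were 2.94 above them. Slc12a9, a relative without a settled substrate, had 2422, 1819.8 and 2482 normalised counts in repopulating microglia, 539.9, 636 and 633 in bone-marrow macrophages and 2383 and 1901 in wild-type microglia and a log2 difference of -1.82 (SE 0.18, adjusted p = 0.000111) between bone-marrow macrophages and wild type. The potassium-chloride cotransporter Slc12a7 ran the other way, with 249, 195 and 281 normalised counts in repopulating microglia, 364, 391 and 404 in bone-marrow macrophages and 194 and 185 in wild-type microglia, and was higher in bone-marrow macrophages than in wild type by 1.02 (SE 0.18, adjusted p = 0.00207). Slc24a3, a potassium-dependent sodium-calcium exchanger at chromosome 2, 145167754 to 145642166, had 156, 128 and 281 normalised counts in repopulating microglia, 13.1, 25.5 and 12.3 in bone-marrow macrophages and 303 and 314 in wild-type microglia. Bone-marrow macrophages were -4.18 (SE 0.39, adjusted p = 8.73e-05) from wild type, and the 3 groups did not overlap. The sodium-calcium exchanger Slc8a1 had 1128, 1055 and 1105 normalised counts in repopulating microglia, 676, 695 and 588 in bone-marrow macrophages and 1160.4 and 1161 in wild-type microglia, lower in bone-marrow macrophages than in wild type, at -0.83 (SE 0.12, adjusted p = 0.00101). Slc9a9, a sodium-proton exchanger of endosomes, had 2051, 2072 and 1670.1 normalised counts in repopulating microglia, 1124, 1458 and 1152 in bone-marrow macrophages and 2699 and 2119.9 in wild-type microglia, with bone-marrow macrophages lowest at -0.95 (SE 0.18, adjusted p = 0.00301). The phosphate importer Slc20a1, with 118, 189 and 172 normalised counts in repopulating microglia, 372, 312 and 339 in bone-marrow macrophages and 143 and 103 in wild-type microglia, was higher in bone-marrow macrophages than in wild type by 1.48 (SE 0.24, adjusted p = 0.00142). Over the class, 7 of 21 were lower and 3 higher in bone-marrow macrophages than in wild type, with a median of -0.28 (6 lower and 4 higher with equal totals). Called in the main fit were 47.6% of the class, near the 43.5% of all genes.

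**Figure D4:**
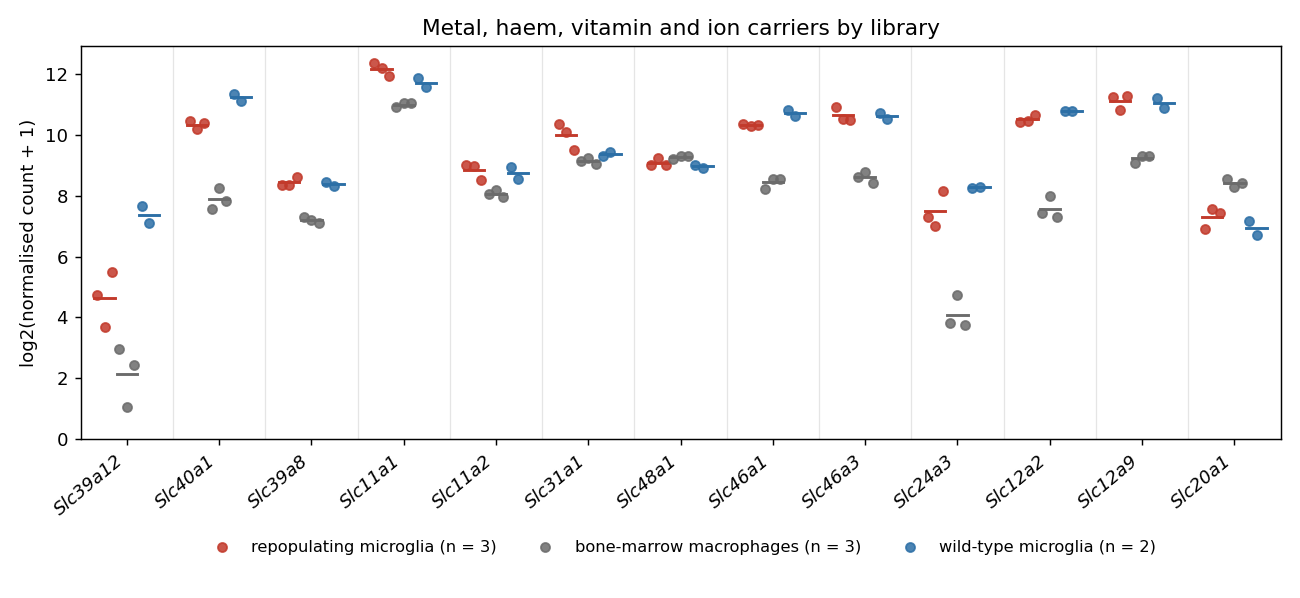
Normalised counts of 13 carriers of metals, haem, vitamins and ions (y axis, log2 of the count plus 1) in each library, colours and bars as in the plot of sugar carriers. Bone-marrow macrophages are lowest for Slc40a1 (189 to 303 normalised counts), Slc46a1 (296 to 375) and Slc12a2 (157 to 253), and highest for Slc20a1 (312 to 372).

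Monocarboxylate carriers were led by Slc16a3 (MCT4), the lactate exporter of glycolytic cells, with 1025, 1001 and 751 normalised counts in repopulating microglia, 607, 532 and 642 in bone-marrow macrophages and 898 and 743 in wild-type microglia. Repopulating libraries lay above all bone-marrow libraries, a log2 difference of 0.63 (SE 0.16, adjusted p = 0.0161) that was lost with equal totals and without repopulating replicate 1 or bone-marrow replicate 1 or 2 (adjusted p up to 0.0677). Slc16a1 (MCT1) had 241, 229 and 184 normalised counts in repopulating microglia, 156, 153 and 151 in bone-marrow macrophages and 220.1 and 241 in wild-type microglia, again lowest in bone-marrow macrophages, at -0.58 (SE 0.16, adjusted p = 0.0198) from wild type, a call lost without any 1 of the wild-type or bone-marrow libraries (adjusted p up to 0.122). Slc16a6, known to carry ketone bodies in zebrafish liver, had 676, 799.9 and 888 normalised counts in repopulating microglia, 476, 435 and 431 in bone-marrow macrophages and 1054 and 881 in wild-type microglia. It was lower in bone-marrow macrophages than in wild type, at -1.11 (SE 0.16, adjusted p = 0.000737), though 23.5% of its exon bases overlap other genes, Amz2 among them. In all, 5 of 9 were lower in bone-marrow macrophages than in wild type (5 lower and 1 higher with equal totals) and 5 were higher in repopulating microglia than in bone-marrow macrophages (2 higher and 2 lower with equal totals).

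The lysosomal exporters of histidine and small peptides differed from each other. Slc15a4, needed for signalling by endosomal Toll-like receptors, had 1770.0, 1443 and 1064 normalised counts in repopulating microglia, 740.5, 618 and 705 in bone-marrow macrophages and 1357 and 1475 in wild-type microglia. Bone-marrow macrophages were lowest without overlap, at -1.04 (SE 0.20, adjusted p = 0.00388) from wild type. Slc15a3 had 2151, 1836 and 2419.9 normalised counts in repopulating microglia, 1713, 1758 and 1933 in bone-marrow macrophages and 1567 and 1543 in wild-type microglia, highest in repopulating microglia, where its difference from wild type (0.45) had an adjusted p of 0.0904, and 28.1% of its exon bases overlap Tmem132a. Among nucleoside carriers, the lysosomal Slc29a3 (ENT3) made up between 78.5% and 81.7% of the class in repopulating microglia, between 74.6% and 78.5% in bone-marrow macrophages and between 72.0% and 75.5% in wild-type microglia. Slc29a1 (ENT1) of the plasma membrane had 1379, 1114 and 1503 normalised counts in repopulating microglia, 926, 887 and 951 in bone-marrow macrophages and 1928 and 1742 in wild-type microglia and was lower in bone-marrow macrophages than in wild type, at -0.99 (SE 0.15, adjusted p = 0.00108). Slc28a2 had 5.67, 4.43 and 0 normalised counts in repopulating microglia, 40.3, 38.2 and 40.6 in bone-marrow macrophages and 29.9 and 19.3 in wild-type microglia, and repopulating microglia were lower than bone-marrow macrophages, at -3.62 (SE 0.66, adjusted p = 0.00361). Of 6 nucleotide sugar and acetyl-CoA carriers of the Golgi and endoplasmic reticulum, 4 were lower in bone-marrow macrophages than in wild type, led by Slc35a5 at -1.20 (SE 0.25, adjusted p = 0.00527).

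Lipid and organic ion carriers were led by Slc44a2, a choline transporter-like protein, with 2253, 1529 and 2560.5 normalised counts in repopulating microglia, 1072, 1069 and 1050.2 in bone-marrow macrophages and 3768 and 3194 in wild-type microglia. Wild-type microglia were highest, and bone-marrow macrophages were -1.70 (SE 0.21, adjusted p = 0.000349) from them. Slc22a17, a receptor for lipocalin 2 at chromosome 14, 54906304 to 54913132, had 248, 272 and 303 normalised counts in repopulating microglia, 26.1, 38.2 and 33.5 in bone-marrow macrophages and 274 and 329 in wild-type microglia. Both microglial groups were high and overlapped, and bone-marrow macrophages were -3.18 (SE 0.21, adjusted p = 1.94e-05) from wild type and lower than repopulating microglia by 3.05 on the same scale. Slc10a3 was lower in bone-marrow macrophages than in wild type, at -1.08. Slc44a1, the relative of Slc44a2, had 602, 531 and 303 normalised counts in repopulating microglia, 799, 889.8 and 719.6 in bone-marrow macrophages and 353 and 364 in wild-type microglia. It was highest in bone-marrow macrophages, at 1.16 (SE 0.26, adjusted p = 0.00815) from wild type, with an adjusted p of 0.057 without wild-type replicate 1. The fatty acid transport protein Slc27a3 had 1 read in all repopulating libraries and 100 in the bone-marrow libraries, a ratio of bone marrow to repopulating of 67.9 (95% counting interval 11.9 to 2708). It met the rule through the bone-marrow libraries alone. Vesicular carriers held the lysosomal sialic acid exporter Slc17a5, with 213, 270.1 and 226 normalised counts in repopulating microglia, 259.7, 317 and 256 in bone-marrow macrophages and 278 and 200.3 in wild-type microglia and overlapping groups.

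Mitochondrial carriers had the smallest share of calls of the classes with over 5 members in the comparison of bone-marrow macrophages with wild-type microglia, 7 of 37 lower and 3 higher, with a median of -0.22 (7 lower and 7 higher with equal totals). That share was 27% in the main fit, beside 43.5% of all genes. The ADP/ATP carrier Slc25a5 had 6007, 6546 and 3429 normalised counts in repopulating microglia, 4924, 4879.7 and 4529.9 in bone-marrow macrophages and 5385 and 4529 in wild-type microglia. All groups overlapped. Slc25a37 (mitoferrin 1), which brings iron into the mitochondrion, had 128, 111 and 235 normalised counts in repopulating microglia, 59.7, 59.4 and 58.2 in bone-marrow macrophages and 262 and 282 in wild-type microglia. The 3 bone-marrow libraries lay lowest, -2.18 (SE 0.29, adjusted p = 0.00058) from wild type, the direction also seen at ferroportin. The calcium-regulated ATP-magnesium/phosphate carrier Slc25a24 had 22.7, 66.4 and 5.76 normalised counts in repopulating microglia, 249, 255 and 214 in bone-marrow macrophages and 54.5 and 70.2 in wild-type microglia. Repopulating microglia were lower than bone-marrow macrophages, at -3.44 (SE 0.67, adjusted p = 0.00506). The dicarboxylate carrier Slc25a10 was higher in bone-marrow macrophages than in wild type, at 403, 362 and 440.0 against 160.3 and 154 normalised counts (1.35 (SE 0.18, adjusted p = 0.000654)). Slc25a45 was lower, at 322, 325 and 367 against 937 and 921 (-1.46). The aspartate-glutamate carrier Slc25a12 was lower in repopulating microglia than in bone-marrow macrophages, at -0.76 (SE 0.15, adjusted p = 0.00497), as was the carnitine-acylcarnitine carrier Slc25a20 (-0.76).

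Transport genes outside the symbol rule were counted for the setting. The shares of all genes stand beside the list counts here and in the next paragraph. Called in bone-marrow macrophages against wild type were 43.5% of all genes (22.2% lower and 21.3% higher). In repopulating microglia 16% were higher and 14.9% lower than in bone-marrow macrophages, and 4.86% higher and 3.75% lower than in wild type. The lists were not tested as sets. Of 3 tested organic anion family genes on the list counted, Slco2b1, Slco3a1 and Slco4a1, 2 were lower in bone-marrow macrophages than in wild-type microglia and 2 were higher in repopulating microglia than in bone-marrow macrophages. Slco1c1 of the same family, counted with the endothelial markers, was also lower in bone-marrow macrophages than in wild type, at -2.98 (adjusted p = 0.00603, and 0.0648 without wild-type replicate 2), and higher in repopulating microglia than in bone-marrow macrophages by 2.45 (adjusted p = 0.0118). Slco2b1, which carries steroid sulfates and prostaglandins, had 15945, 12994 and 17365 normalised counts in repopulating microglia, 5336, 5818 and 5229 in bone-marrow macrophages and 19859 and 20327 in wild-type microglia. Its log2 difference was -1.88 (SE 0.16, adjusted p = 5.74e-05) for bone-marrow macrophages against wild type and 1.49 (SE 0.14, adjusted p = 0.000124) between repopulating microglia and bone-marrow macrophages. Of 12 major facilitator and exporter genes, 6 were lower and 1 higher in bone-marrow macrophages than in wild type, and 2 were higher in repopulating than in wild-type microglia. These were Mfsd12, needed for cystine import into lysosomes and melanosomes, at 297, 326 and 324 against 119 and 109.8 normalised counts (1.46 (SE 0.14, adjusted p = 0.00118)), and the sphingosine 1-phosphate exporter Spns2, at 954, 857 and 898 against 429.5 and 371 (1.17 (SE 0.15, adjusted p = 0.00429), and 0.0542 in adjusted p without wild-type replicate 2). Mfsd12 passed in every alternative. Of 15 letter-named members of the nucleotide sugar family, 5 were lower and 1 higher in bone-marrow macrophages than in wild type.

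Partners and related carriers were few. Embigin (Emb), a chaperone of monocarboxylate carriers, had 52.9, 50.2 and 11.5 normalised counts in repopulating microglia and 334 and 279 in wild-type microglia, -3.23 (SE 0.55, adjusted p = 0.0122), with an adjusted p of 0.128 and 0.0796 without wild-type replicate 1 or 2. Of the 9 partner genes this was the call in that comparison, and 3 were lower and 1 higher in bone-marrow macrophages than in wild type. Emb was also lower in repopulating microglia than in bone-marrow macrophages, at -4.04 (adjusted p = 0.000433, limma), a call kept in every alternative. In that comparison 1 other partner gene was higher. Of the 6 mitochondrial pyruvate carrier and sideroflexin genes, 2 were higher in bone-marrow macrophages than in wild type.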

How the data were processed

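The deposited table has the unit signal: each library's gene counts over a single size factor, as seen from the values. All values (100% within 0.01 reads) were whole multiples of 1 read, so whole reads were recovered. The submitters' processing notes name DESeq 1.14.0, HTSeq, TopHat2 2.0.10 and Bowtie2 2.1.0.0 with build mm10. The role of each tool and the annotation were not given in the sources used here. Strand is not marked by the kit, per the labels' protocols.

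Main tests used limma 3.58.1 (R 4.3.3) with a variance trend on log2(normalised count + 1), over 11415 genes that reached 10 in at least 2 libraries, 1 model over all 8 libraries without covariates, two-sided, adjusted within each comparison. Alternatives were edgeR 4.0.16 (quasi-likelihood) and DESeq2 1.42.0 on recovered reads, other pseudocounts (0.5 and 5), filters and scalings, a replicate block, only 2 groups and each library left out. On simulated data with 200 changed genes, 46%, 49% and 57% of 2-fold and 97%, 94% and 96% of 4-fold changes were recovered between repopulating and wild-type microglia, between bone-marrow macrophages and wild type, and between repopulating microglia and bone-marrow macrophages (11215, 11230 and 11222 genes fitted). Of the simulated calls, 7.14%, 5.30% and 4.97% were false. Changed genes were drawn from those with higher means and were fewer than the genes called in the real comparisons. These rates thus do not cover carriers with low counts. Each library was counted as 1 sample. No 2 replicates agreed within counting noise, which does not show that they were separate animals.

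Genes and lists were chosen with earlier results of these data known. Named were, per comparison, up to 10 highest and lowest called carriers with groups apart and a mean of at least 100, up to 4 per class by adjusted p, and a hand-picked list. Slc1a2, Slc6a9, Slc19a1, Slc30a4, Slc31a1, Slc31a2, Slc41a2 and Slco1c1 were added after their values were seen. Coordinates are 1-based (GENCODE vM21, GRCm38), which held 177 of the 178; RefSeq lists Slc24a6 as Slc8b1. Exons shared with other genes make counts uncertain. Counting intervals cover counting error only.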

Additional observations from a re-analysis of the deposited data

How the results depend on the processing

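Repopulating against wild-type microglia gave 19 carriers called, 0 with only the 2 groups compared, and 0 to 47 with 1 library left out. Bone-marrow macrophages against wild-type microglia gave 86, and 54 (without wild-type replicate 1) to 123 (without repopulating replicate 3) with 1 library left out. Repopulating microglia against bone-marrow macrophages gave 81, and 53 (without bone-marrow replicate 2) to 103 (without repopulating replicate 3). Of the 86 calls 45, and of the 81 calls 41, passed in every alternative that tested them. No named carrier that was called changed direction in any alternative. The replicate block gave 14, 88 and 83 calls against 19, 86 and 81. Replicate numbers are not stated to pair samples, and deviations of same-numbered libraries from their group means correlated between -0.24 and 0.244. Groups of 2 or 3 libraries fix part of such values in advance, so they cannot tell whether same-numbered libraries were paired. Wild type has 2 libraries, which limits both comparisons with it, and simulated 2-fold changes were recovered in 46% to 57% of cases. Carriers below about 100 reads in a group carry wide counting error. Labels could not separate strain from group. With equal totals the splits between higher and lower calls changed, as given beside the class counts.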
